A study of Pleuronichthys verticalis with 38 samples.

Results

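Liver transcript levels of female hornyhead turbot (a flatfish of the sea floor, Pleuronichthys verticalis) were compared with those of males. The 36 fish compared were those with the sex label Female (10 fish) or Male (26 fish), out of 38 fish in the series, and the 2 fish labelled Immature were described apart. Sex crossed a treatment design of 6 groups, all sampled at 96 h. PBDE fish were injected once into the body cavity with a mixture of the polybrominated diphenyl ethers BDE47, 99 and 100 (flame retardants) in peanut oil, at 0.5 µg per g body weight (low PBDE, 2 females and 5 males) or 5 µg per g (high PBDE, 0 females, 5 males and 1 immature fish). PCB fish received a mixture of 13 polychlorinated biphenyl congeners in the same oil, at 1 µg per g (low PCB, 4 females and 1 male) or 10 µg per g (high PCB, 1 female and 6 males). Oil controls (1 female, 4 males and 1 immature fish) were given the peanut oil vehicle only. Fish of the seawater control group (2 females and 5 males) had no injection. Age, body size and reproductive stage of each fish are not given in the sources used here, so females near spawning and females at rest cannot be told apart.

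In egg-laying fishes the liver is one of the tissues in which sexes are known to differ most. Estrogen from the ripening ovary switches on hepatic synthesis of vitellogenins, the precursors of egg yolk, and of egg envelope proteins, which travel to the ovary in the blood. Male liver carries the same genes and estrogen receptors, normally with little transcription of them, and sex steroids and pituitary growth hormone also shape hepatic metabolism of steroids and foreign compounds. The array files pair each probe with a contig number of the turbot transcript assembly and with no gene name, so neither these genes nor liver marker genes could be looked up, and probes are given by their identifiers.

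Each liver was hybridised to 1 array with 1 colour, and levels are log2 processed spot intensity relative to the 75th percentile of that array, so 0 is the level of that percentile and 1 unit is a factor of 2. Of 14757 non-control probes, 10477 were tested. Between 7618 and 9502 probes per array were well above background in females, with a median of 8936, and between 6113 and 10354 in males, with a median of 8936. The mean was 8888 ± 576 (SD, n = 10) in females and 8803 ± 890 (SD, n = 26) in males, a difference of 84.9 probes (exact permutation of the sex labels within treatment groups, two-sided, p = 0.773). The 75th percentile itself averaged 125 ± 27.2 intensity units in females and 120 ± 35.5 in males (exact permutation p = 0.620). Arrays were scanned on 3 days, and day was uneven between the sexes: 5, 4 and 1 females and 5, 15 and 6 males lay on scan days 1, 2 and 3. Levels of 830 probes (7.92%) differed between scan days at a limma adjusted p under 0.05 with treatment and sex in the model. Between array slides 966 probes (9.22%) did so in the same kind of model. Each slide lay within 1 scan day, so slide differences take in those between days, and slides 5 and 8 held no female. Values within scan days are therefore given for the 4 probes named over all fish. Scan day was also added to the model for counts over all fish, control fish and exposed fish.

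Few probes could be called different between female and male livers. In a limma model with treatment group as covariate, 2 of 10477 probes (0.0191%) had an adjusted p under 0.05, and both were lower in females. Before adjustment 616 probes (5.88%) had a p under 0.05, against 523.85 that the threshold alone gives, with 270 higher and 346 lower in females. With scan day in the model there were 486, fewer than the threshold alone gives. Other settings gave more: 1143 of 10477 without the low PCB group, which held a single male. Leaving out 1 fish at a time gave 500 to 1119. The unadjusted count therefore depended on the fish and terms used. The median difference, female minus male, was -0.01 log2 units, and 90% of probes lay between -0.53 and 0.49. Differences past 1 log2 unit were seen at 150 probes (1.43%), of which 60 were higher and 90 lower in females, and the extremes of all probes were 2.87 and -3.45. No probe (0 of 10477) had levels in which females and males did not overlap. For 42 of the 10477 probes all females lay above the male mean, and for 29 all lay below it. How many such probes random sex labels would give was not tested.

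**Figure D1:**
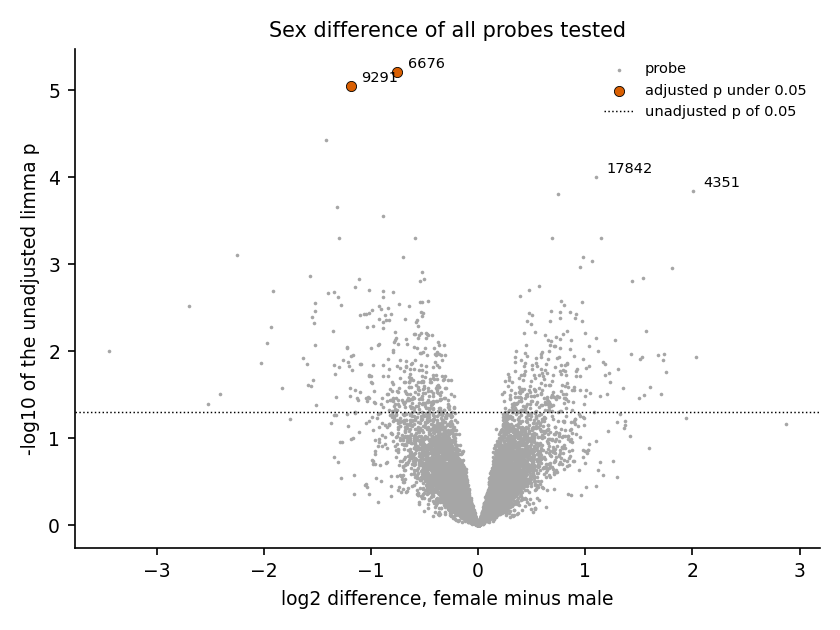
Log2 difference between female and male liver (x axis, female minus male, treatment group in the model) against -log10 of the unadjusted limma p (y axis), 1 point per probe tested. The 2 probes with an adjusted p under 0.05 (orange) are both on the side lower in females, and the named probes higher in females, HT_SCCWRP_17842 and HT_SCCWRP_4351, lie below them on the p scale.

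These arrays bounded the size of the sex difference for most probes. The 95% confidence interval of the difference reached a median of 0.49 log2 units to either side (1.41-fold), and for 8131 probes (77.6%) the whole interval lay between -1 and 1. The residual SD between fish had a median of 0.56 log2 units.

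HT_SCCWRP_6676 (contig_6676) was lower in females. Its level was -1.27, -1.01 and -0.49 in females (lowest, median and highest of 10) and -1.13, -0.39 and 0.25 in males (lowest, median and highest of 26). All 10 females lay below the male mean and 4 lay below the lowest male, while 11 of 26 males fell inside the female range. The means were -0.97 ± 0.28 (SD, n = 10) in females and -0.42 ± 0.38 (SD, n = 26) in males, and with treatment in the model the difference was -0.75 (SE 0.14, limma adjusted p = 0.0472). Within scan days 1, 2 and 3 the difference of means, without treatment in the model, was -0.42, -0.43 and -0.52.

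HT_SCCWRP_9291 (contig_9291) was the other probe lower in females. Its level was -3.94, -2.98 and -1.59 in females and -3.47, -2.12 and -1.24 in males (lowest, median and highest of 10 and of 26). The female and male ranges overlapped over most of their length, with 3 females below the lowest male and 9 of 10 below the male mean. The difference was -1.19 (SE 0.23, limma adjusted p = 0.0472). This is a dim probe, well above background in 10 of 10 females and 25 of 26 males. Some females lay close to the limit of their array, such as high PCB 40 at -3.94 (limit -3.98) and seawater 22 at -3.47 (limit -3.60). Others lay far above it, such as low PCB 29 at -1.59 (limit -3.88). The size of the difference is therefore uncertain. Its level itself differed between scan days (limma adjusted p = 0.0147). Without treatment in the model, the difference of means was -0.56 on day 1 (5 females, 5 males) and -0.67 on day 2 (4 females, 15 males). On day 3 (1 female, 6 males) it was -0.19.

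Both calls were close to the threshold. With scan day in the model the differences were -0.66 for HT_SCCWRP_6676 and -0.92 for HT_SCCWRP_9291 (limma adjusted p = 0.222 for both), and with normexp background correction they were -0.35 and -0.27 (adjusted p = 0.235 and 0.302). Leaving out 1 fish at a time gave 0 calls for 28 of 36 fish, and the number of calls ran from 0 to 3.

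In the other direction, 0 of the probes higher in females passed the adjusted threshold in limma, and 270 had an unadjusted p under 0.05. HT_SCCWRP_17842 (contig_17842), a bright probe, had levels of 4.64, 5.36 and 6.54 in females and 3.35, 4.64 and 5.84 in males (lowest, median and highest). All 10 females lay above the male mean and 3 above the highest male, while 13 males lay inside the female range. With treatment in the model the difference was 1.10 (SE 0.25, limma adjusted p = 0.261), and with scan day added it was 1.06 (limma adjusted p = 0.494). Differences of means within scan days, without treatment in the model, were 0.68, 1.03 and 0.46. On each of the 6 slides that held both sexes the female mean was the higher, as it was for HT_SCCWRP_4351. For HT_SCCWRP_6676 and for HT_SCCWRP_9291 the female mean was lower on 5 of these slides and higher on 1. Slide means are without treatment in the model. These probes were chosen on the same fish, so a shared direction across slides or scan days is partly built in.

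HT_SCCWRP_4351 (contig_4351) varied far less among females than among males. Levels were 5.41, 5.86 and 6.71 in females and 0.69, 4.66 and 6.06 in males (lowest, median and highest), with an SD of 0.44 in 10 females and 1.35 in 26 males. The lowest male was the low PCB male 33 at 0.69, followed by the seawater male 7 at 1.68 and the low PBDE male 12 at 2.15, while 8 males lay inside the female range. The difference was 2.00 (SE 0.47, limma adjusted p = 0.274), and 1.47 without male 33. Both values are with treatment in the model. Male 33 was the only low PCB male, so without him the 4 low PCB females add nothing to the difference either. With scan day added and all fish kept the difference was 2.39 (limma adjusted p = 0.105). Differences of means within scan days, without treatment in the model, were 2.42, 1.12 and 1.04.

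**Figure D2:**
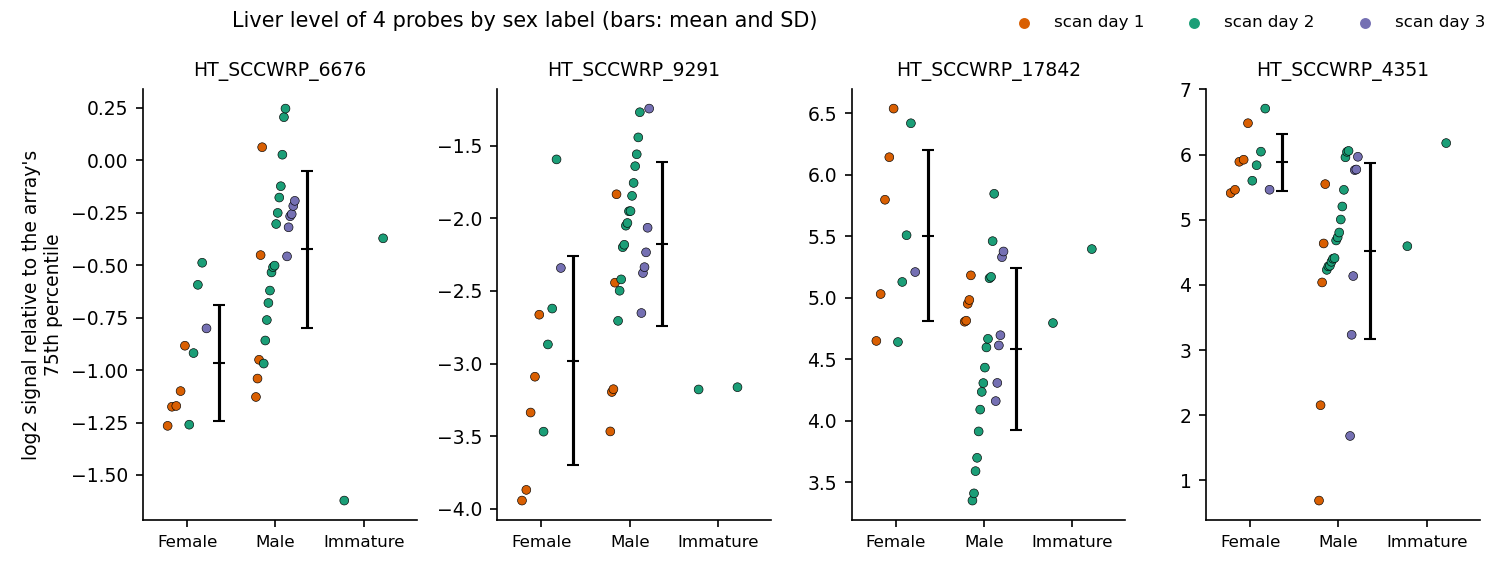
Level of 4 probes in each fish (y axis, log2 signal relative to the array's 75th percentile) by sex label, with females left of males and the 2 immature fish at the right; points are fish coloured by scan day, and bars give the mean and SD. Female and male points overlap in all 4 panels, and for HT_SCCWRP_4351 the males reach down to 0.69 while no female lies below 5.41.

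For these 4 probes the difference had the same sign in all 5 treatment groups that held both sexes; they were chosen on these fish, so the shared sign is partly built in. For HT_SCCWRP_6676 it was -0.97 in seawater controls, -0.50 in oil controls, -0.51 at low PBDE, -0.75 at low PCB and -1.05 at high PCB. For HT_SCCWRP_9291 it was -1.41, -1.19, -1.04, -0.47 and -1.76 in the same order. HT_SCCWRP_17842 differed by 1.12, 1.17, 1.90, 0.41 and 0.32, and HT_SCCWRP_4351 by 1.75, 1.04, 1.67, 5.01 and 1.04. The low PCB values rest on the single male 33, and the oil and high PCB values on 1 female each, so no spread can be given for these groups.

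**Figure D3:**
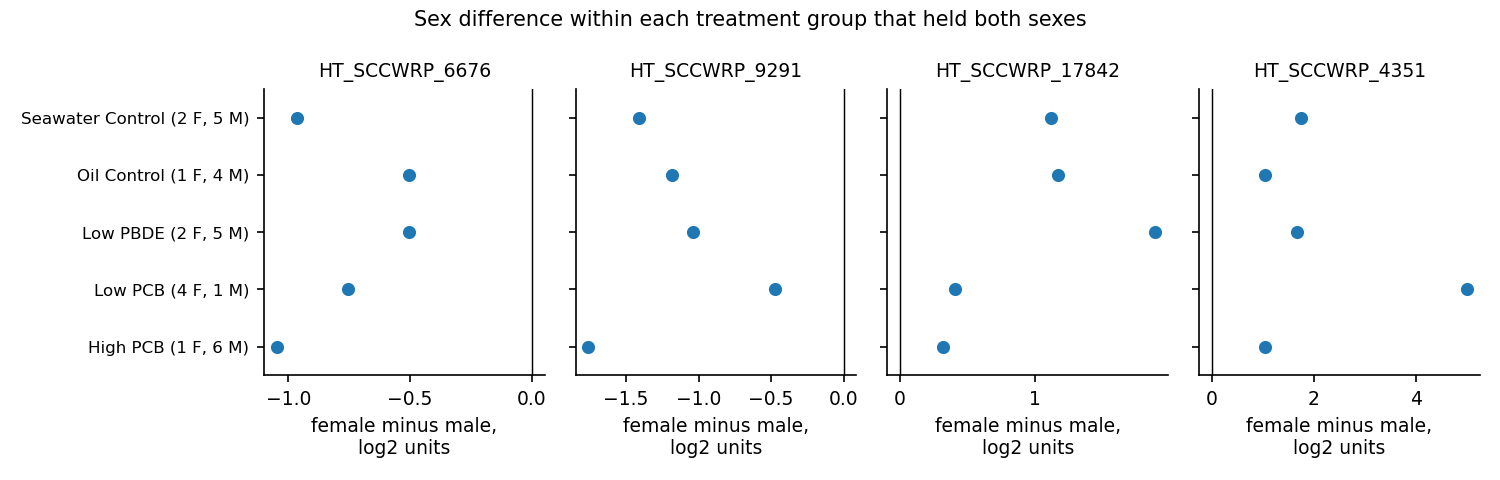
Sex difference (x axis, female minus male group mean in log2 units) of the 4 probes within each treatment group that held both sexes (rows, with the number of females and males). All points lie on 1 side of the zero line within a panel, and the value of 5.01 for HT_SCCWRP_4351 at low PCB comes from 4 females and 1 male.

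Brightness on the array depends on the probe as well as on the transcript, so bright probes are taken here as well measured ones. Among the 100 brightest probes, differences ran from -0.42 to 0.47 log2 units, 65 were higher and 35 lower in females, and 0 had an adjusted p under 0.05 in limma. An unadjusted p under 0.05 was found for 7 of the 100, and females were higher at 6 of these. For 99 of the 100 the 95% interval lay within 1 log2 unit of 0. When the 100 brightest probes were chosen in females alone, means differed by -0.45 to 0.57, with 9 at an unadjusted p under 0.05 and 0 past the adjusted threshold. Choosing on female levels favours probes higher in these females, so the 9 are no separate evidence of a sex difference. Across 4 bins of mean level with equal numbers of probes, dimmest to brightest, the share at an unadjusted p under 0.05 was 5.15%, 6.26%, 6.22% and 5.88%. The median difference, female minus male, rose over these bins: -0.06, -0.03, -0.01 and 0.05. Of the probes at an unadjusted p under 0.05, 44, 64, 73 and 89 were higher in females and 91, 100, 90 and 65 lower. This trend with level was not tested. Differences past 1 log2 unit fell mostly among dim probes, with 57, 47, 32 and 14 in the same bins.

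Probes at which single females lay far above every male were looked for directly, with no condition that male levels were low. The search covered only probes well above background on at least 5 arrays. Probes that were well above background in no male were so in at most 3 females, so this filter had removed them. A transcript detected in females and in no male could therefore not be found by this search. At 30 of the 10477 probes some female lay more than 2 log2 units above the highest male, and at 0 probes was this so in at least 2 females. The count per female ran from 0 in oil control 49 to 6 in seawater controls 22 and 6. With a margin of 1 log2 unit there were 175 such probes of 10477, of which 4 were shared by at least 2 females and 1 by 3 females. Matching counts of males above every female, or of fish below the other sex, are not given. These counts alone therefore do not mark a trait of females.

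Presence of signal was compared as well, as the number of fish in which a probe was well above background. Of 7079 probes whose detection varied between fish, 0 passed an adjusted p under 0.05 in an exact permutation of the sex labels within treatment groups. With 77175 arrangements a single probe could not have passed, however clear its difference, so this 0 cannot exclude one. An unadjusted p under 0.05 was found for 55 (0.777%), of which 24 were detected in more and 31 in fewer females than the treatment groups give. Counts of fish take few values, so this share cannot be set against the threshold as for the limma counts. Permuted within scan days, 23 were detected in more and 75 in fewer females, and over all fish 29 in more and 21 in fewer. HT_SCCWRP_10858 was detected in 6 of 10 females and 3 of 26 males (exact permutation p = 0.00964, adjusted p = 1), and HT_SCCWRP_30645 likewise in 6 and 3 (p = 0.0101, adjusted p = 1). The level of HT_SCCWRP_30645 averaged -4.35 in females and -4.56 in males, with 21 of 26 males inside the female range. The background limit differed between arrays: oil control female 49 at -4.06 counted as detected, and seawater control male 46 at -3.36 did not. HT_SCCWRP_25885 was detected in 3 of 10 females and 23 of 26 males (exact permutation p = 0.0028, adjusted p = 1), and HT_SCCWRP_5917 in 2 and 17 (p = 0.00402, adjusted p = 1). No probe (0) was detected in all females and in fewer than 13 males, and 2 were detected in no female and in more than 13 males. A probe seen in females only was seen in at most 3 of them, and one seen in males only in at most 14.

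Among control fish, which carried no added halogenated compound, 3 females were set against 9 males. In limma 0 probes passed an adjusted p under 0.05, with a lowest adjusted p of 0.351, and 792 (7.56%) had an unadjusted p under 0.05, 268 higher and 524 lower in females. Levels of the sexes did not overlap at 151 probes (1.44%), with 53 where all females were above and 98 where all were below the males. With only 3 females and 9 males, random sex labels also separate some probes. Whether 151 exceeds that was not tested. HT_SCCWRP_10871 (contig_10871) had levels of 1.68, 2.14 and 3.64 in the 3 control females, against 3.94, 4.58 and 5.16 in the control males (lowest, median and highest of 9). Every control female lay below every control male, a difference of -1.98 (SE 0.35, limma adjusted p = 0.351). HT_SCCWRP_29114 lay at 0.11, 0.26 and 0.85 in control females and between -1.15 and -0.42 in control males, a difference of 1.15 (SE 0.23, limma adjusted p = 0.351). HT_SCCWRP_19156 lay at 1.33, 2.00 and 2.18 in control females and between 0.58 and 1.19 in control males (difference 0.96, SE 0.22, limma adjusted p = 0.442). HT_SCCWRP_63325 was not well above background in any of the 3 control females and was so in 8 of 9 control males (limma adjusted p = 0.351). The size of its difference is therefore uncertain. With the females set at the background limit of their arrays, the female mean was 1.69-fold lower, without treatment in the model. Seawater control male 24, not well above background, entered that comparison at his own level, so it is no strict minimum.

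Of the control females 2 of 3 and of the control males 1 of 9 were scanned on day 1, and with scan day in the model the 792 probes became 486. Over the 3 alternatives run with all control females, the difference of HT_SCCWRP_10871 ran from -1.98 to -1.40. That of HT_SCCWRP_29114 ran from 0.89 to 1.15, of HT_SCCWRP_19156 from 0.65 to 0.96 and of HT_SCCWRP_63325 from -1.64 to -1.55. The highest limma adjusted p was 0.960 for each of these probes. Over all 36 fish the level of HT_SCCWRP_63325 differed between scan days (limma adjusted p = 0.0177). For HT_SCCWRP_19156 the difference of means over all 36 fish, female minus male, was 0.02, 0.37 and -0.65 within days 1, 2 and 3. Without the seawater female 22, 4 probes passed, HT_SCCWRP_10871 among them with a difference of -2.62 (limma adjusted p = 0.000717). The females left in that fit, seawater 6 and oil 49, were both scanned on day 1, against 1 of 9 control males. Sex and scan day are therefore hardly separated in it. Without the seawater female 6 there was 1 probe, and without the oil female 49 there were 0.

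Among exposed fish 7 females were set against 17 males, the 5 high PBDE males adding only to the estimate of spread. In limma 0 probes passed an adjusted p under 0.05, with a lowest adjusted p of 0.179, and 409 (3.90%) had an unadjusted p under 0.05, 215 higher and 194 lower in females. There were 0 probes without overlap between the sexes. HT_SCCWRP_1752 (contig_1752) had levels of -4.89, -1.41 and 0.44 in exposed females, against -6.43, -5.77 and -1.05 in exposed males (lowest, median and highest). It was well above background in 6 of 7 exposed females and 2 of 17 exposed males. The fitted difference of 4.02 (SE 0.85, limma adjusted p = 0.188) therefore rests on male levels mostly below background, and its size is not a measured fold. In controls it was well above background in 1 of 3 females and 5 of 9 males, and the test of a different sex difference in exposed and control fish gave a limma adjusted p of 0.977. HT_SCCWRP_6578 lay at -3.60, -2.20 and -1.05 in exposed females and -2.31, -0.63 and 0.94 in exposed males (difference -2.34, SE 0.46, limma adjusted p = 0.179), and differed by 0.15 (SE 0.90) in controls. In exposed fish HT_SCCWRP_8085 differed by 1.48 (SE 0.32, limma adjusted p = 0.223) and HT_SCCWRP_1426 by -1.29 (SE 0.26, adjusted p = 0.179).

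Whether the sex difference itself differed between exposed and control fish was tested by the interaction of sex and exposure. In limma 0 probes passed an adjusted p under 0.05, with a lowest adjusted p of 0.571, and 395 (3.77%) had an unadjusted p under 0.05, 272 with a higher and 123 with a lower difference in exposed fish. The 95% interval of this double difference reached a median of 1.00 log2 units to either side, a 2.00-fold change. HT_SCCWRP_10871 averaged 4.34 ± 0.63 (SD, n = 7) in exposed females and 3.47 ± 1.16 (SD, n = 17) in exposed males, and 2.49 ± 1.02 (SD, n = 3) in control females and 4.50 ± 0.37 (SD, n = 9) in control males. With treatment group in the model the sex difference was 1.10 (SE 0.57) in exposed and -1.98 (SE 0.35) in control fish, a change of 3.08 (SE 0.79, limma adjusted p = 0.977). The exposed value leaned on few fish: the difference was 3.53 at low PCB, where male 33 at 1.16 was the only male. It was 0.16 at low PBDE and 0.40 at high PCB. The low PBDE value in turn leaned on male 51 at 1.12, the lowest exposed male, as the other males of that group ran from 2.86 to 4.95. Without the low PCB group the change was 2.23 (limma adjusted p = 1.00).

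HT_SCCWRP_27092 had a fitted change in the same direction of 2.10 (SE 0.45, limma adjusted p = 0.571). Its size is uncertain, since many of its levels lay near or below background: it was well above background in 6 of 7 exposed females and 9 of 17 exposed males, and in 1 of 3 control females and 7 of 9 control males. HT_SCCWRP_1426 and HT_SCCWRP_4509, both bright, changed the other way. HT_SCCWRP_1426 averaged 5.34 ± 0.43 (SD, n = 7) in exposed females and 6.20 ± 0.56 (SD, n = 17) in exposed males, and 5.99 ± 0.44 (SD, n = 3) in control females and 5.45 ± 0.74 (SD, n = 9) in control males, and with treatment group in the model the change was -1.75 (SE 0.45, limma adjusted p = 0.977). For HT_SCCWRP_4509 the change was -1.18 (SE 0.28, limma adjusted p = 0.883). For the 4 probes highest on this list the sex difference over all 36 fish was between -0.55 and 0.01, since the exposed and control values partly cancelled.

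**Figure D4:**
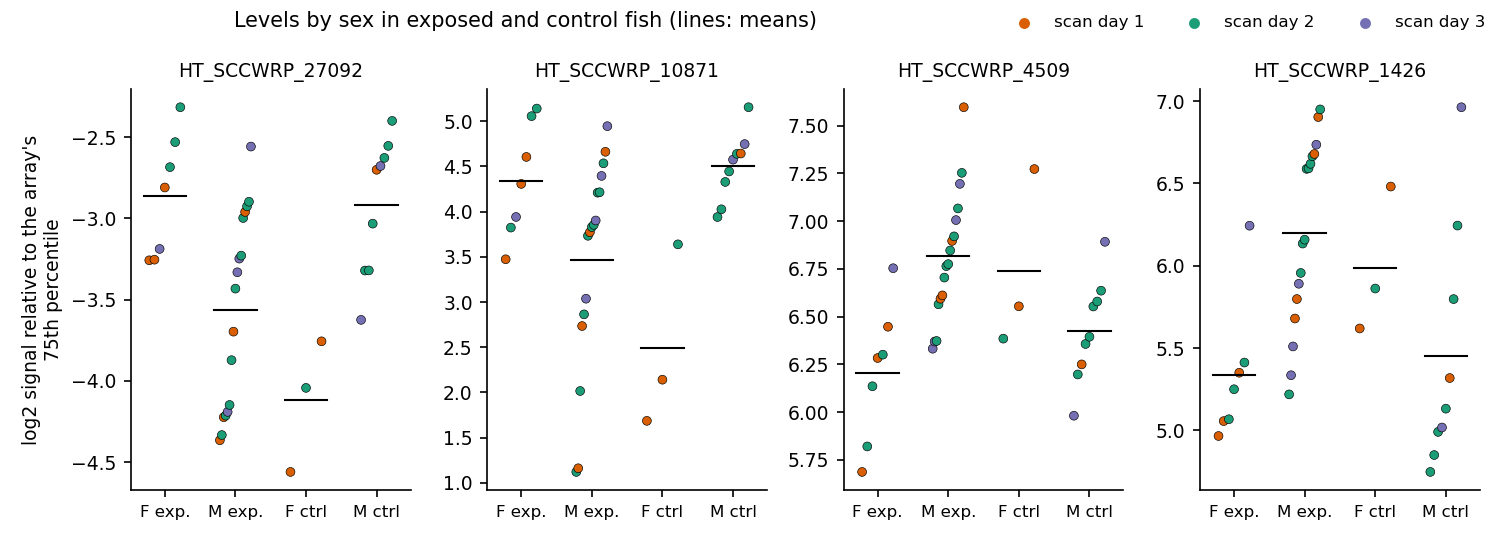
Level of 4 probes (y axis, log2 signal relative to the array's 75th percentile) in exposed females, exposed males, control females and control males, 1 point per fish coloured by scan day, with a line at each mean. In HT_SCCWRP_10871 the 3 control females lie below all control males whereas exposed females and males overlap; none of the 4 probes passed the adjusted test of the difference.

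Exposed and control fish are separate animals, so their sex differences are separate measurements of the same contrast. Across 10477 probes, which are not independent, the differences in exposed and in control fish were related with r = 0.12 (Spearman's rho 0.11), and 54.6% had the same sign. Of the 409 probes at an unadjusted p under 0.05 in exposed fish, 251 (61.4%) had the same sign in controls. Of the 792 in controls, 464 (58.6%) had the same sign in exposed fish. Of all 10477 probes 37 were in both lists, 23 of them with the same sign. The lists held 3.90% of all probes in exposed and 7.56% in control fish, so some overlap arises without a shared difference. Whether 37 exceeds that was not tested. In both sets more arrays of females than of males, as a share, lay on scan day 1. With scan day in both fits r was 0.08, rho was 0.04 and 51.5% of all probes had the same sign. The same sign was then seen for 251 of the 458 probes under 0.05 in exposed fish (54.8%) and for 243 of the 486 in controls (50.0%). In both lists were then 34 probes, 20 of them with the same sign.

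**Figure D5:**
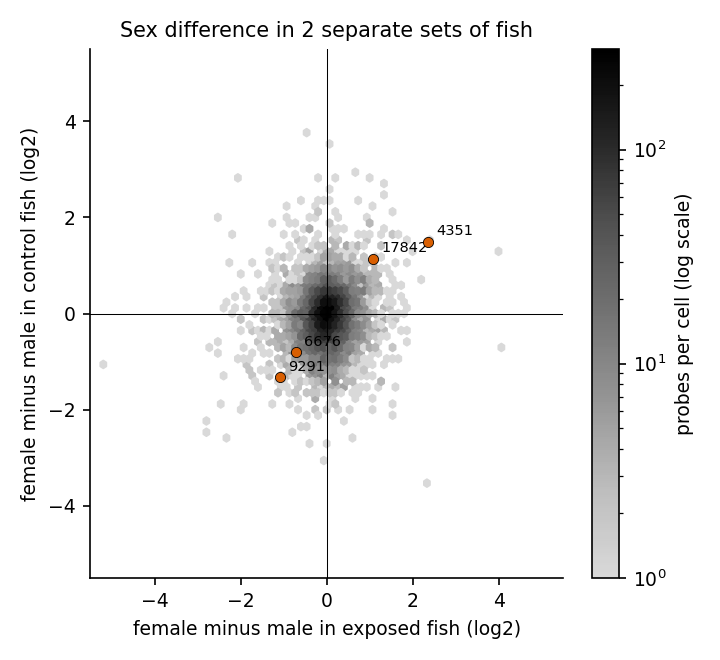
Sex difference of each probe in exposed fish (x axis) and in control fish (y axis), both as female minus male in log2 units, with shading for the number of probes per cell on a log scale. The cloud is close to round (r = 0.12), and the 4 named probes (orange), which were chosen on all 36 fish, lie away from its centre in the same direction on both axes.

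The same was done between single treatment groups. The 6 pairs of groups without low PCB had correlations of the sex difference from 0.05 to 0.17, and the 4 pairs with low PCB from -0.19 to -0.03. At low PCB 1 of 4 females and the only male were scanned on day 1, whereas in the other groups with both sexes the share on day 1 was higher in females. With the scan day terms taken out of the levels, the pairs with low PCB ran from 0.02 to 0.14 and the others from -0.01 to 0.10. The groups of a pair share no fish, but the scan day terms were estimated over all 36. All pairs with low PCB also rest on its single male 33, whose array had the highest 75th percentile of signal, 194 intensity units. What made the correlations with low PCB negative was not tested.

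The correlation of levels between 2 fish over all probes, which takes in the differences in level between probes, had a median of 0.947 for pairs of females, 0.947 for pairs of a female and a male, and 0.947 for pairs of males, with ranges of 0.934 to 0.962, 0.929 to 0.962 and 0.930 to 0.963. The spread within treatment groups was 0.73 log2 units in females and 0.72 in males, as the root of the mean variance over probes, with 5 and 20 degrees of freedom. It exceeded 1 log2 unit at 12.6% of probes in females and 10.8% in males.

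The 2 immature fish, both scanned on day 2, were set beside the females and males. Oil control 20 was nearer the female than the male mean at 376 of the 616 probes with an unadjusted p under 0.05 (61.0%), against 53.5% of all probes, and high PBDE 18 at 311 of 616 (50.5%), against 49.4% of all probes. For HT_SCCWRP_9291 they lay at -3.18 and -3.16, below the mean of the females (-2.98). For HT_SCCWRP_6676 they lay at -1.62, below every female and male, and at -0.37, above every female. For HT_SCCWRP_4351 they lay at 6.18 and 4.59, above every male and below every female. Their mean correlation with females was 0.940 and 0.949, and with males 0.936 and 0.948.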

How the data were processed

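Liver RNA of single fish was hybridised to a custom Agilent array with 1 colour (Cy3), and no pooling is recorded in the labels. Per the file headers, the authors used Agilent Feature Extraction 11.5.1.1 on the scans, and the deposited processed intensity is background-subtracted and on a linear scale. The deposited series table holds the same values (largest difference 0.497%).

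From these, the log2 intensity of each of 15207 non-control spots was set against the 75th percentile of its array and averaged per probe. Of 14757 probes, 10485 were well above background on at least 5 of 36 arrays, and 8 with an outlier flag were dropped, leaving 10477. No spot was saturated (0). The test was limma 3.58.1 in R 4.3.3 (treatment and sex, empirical Bayes with intensity trend, two-sided, Benjamini-Hochberg over 10477 probes, threshold 0.05), and it was tested on simulated data. Detection and array measures were compared by exact permutation within treatment groups (77175 arrangements), in Python 3.11.15 with scipy 1.17.1. Each fish was 1 replicate.

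For each comparison 2 probes are named per direction, those of smallest p. Members, lists and tests were chosen with earlier results of these data known, and gene lists could not be used, as no gene names were at hand. Alternatives were other normalizations, filters, covariates, samples, blocks for slide and scan day, array weights and leaving out each fish. Array number limits the precision. Seawater control 7, whose description names a vehicle control, was kept as its title says, and moving it to the oil controls was an alternative. The fold given for HT_SCCWRP_63325 sets the mean of the control males, at their own levels, against a mean over the control females. Each female enters at her own level or, where higher, the dimmest level that counted as well above background on her array.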

Additional observations from a re-analysis of the deposited data

Results flagged for a closer look

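Among 20 measures compared over the 10 females, 1 had a fish that stood apart from the rest, where chance gives about 1 in 20. The 75th percentile of signal, to which all levels of an array are scaled, was 59.4 intensity units in female low PCB 2. The next female was at 103 and the highest at 153, so the gap was 0.470 of the whole range, just past Dixon's limit for 10 samples. Among males this percentile ran from 43.6 to 194. Low PCB 2 was the only female scanned on day 3, and the 6 males of that day ran from 43.6 to 109. Without this fish the difference was -0.75 for HT_SCCWRP_6676 and -1.20 for HT_SCCWRP_9291 (limma adjusted p = 0.0633 for both), 1.11 for HT_SCCWRP_17842 and 1.98 for HT_SCCWRP_4351.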

How the results depend on the processing

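The 2 probes lower in females depended on most settings. The count was 0 with normexp background correction, no filter on dim probes, no treatment term, all 38 fish, no high PBDE group, no low PCB group, slide as a fixed or random block, scan day as a block, no arrays of scan day 1, or array weights with scan day. It was 1 among probes well above background on all arrays and 4 with array weights, where HT_SCCWRP_17842 also passed (1.19, limma adjusted p = 0.0468). It was 2 under the other 5 settings, including quantile normalization. Leaving out each fish in turn gave 0 to 3, with 3 without male low PBDE 12 (lowest adjusted p 0.00592) and the highest minimum, 0.247, without female seawater control 22. With 1 fish left out, HT_SCCWRP_6676 ran from -0.81 to -0.70, HT_SCCWRP_9291 from -1.32 to -1.08, HT_SCCWRP_17842 from 0.99 to 1.25 and HT_SCCWRP_4351 from 1.47 to 2.19. Over the other settings they ran from -0.79 to -0.35, -1.34 to -0.27, 0.92 to 1.25 and 1.36 to 2.39, with no change of sign in either. The causes were not tested. At an unadjusted p under 0.05 the 616 probes became 342 of 5607 when well above background on all arrays, 1143 without low PCB and 1130 with array weights, and 500 to 1119 with 1 fish left out. The control count ran from 0 to 4 when 1 female was left out and the unadjusted count from 529 to 760, and was 486 with scan day. The exposed and interaction counts remained 0 in all 4 alternatives run for each. The scan day settings for subsets of fish, the fits without scan day 1 or with array weights and scan day, array measures permuted within scan days, and detection permuted over all fish or within scan days (50 and 98 probes at an unadjusted p under 0.05, 0 adjusted, exact permutation) were chosen after seeing the data. No paired analysis was possible because fish numbers are not shared between the sexes. Dim probes were the less precise: the median residual SD was 0.78 log2 units in the dimmest and 0.41 in the brightest of 4 bins of level.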
